A study of Homo sapiens with 16 samples.

Results

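The E2F and DP transcription factors were followed by RNA sequencing in 2 human cancer cell lines in which CDK4/6 had been inhibited with palbociclib, in which indisulam had been given, or both. The members were taken by name: the 8 E2F genes E2F1 to E2F8 and the 2 dimerization partner genes TFDP1 and TFDP2, which is 10 of the 58676 gene IDs that were counted. All 10 were found and all 10 had enough counts to be tested in both lines. A549 is a lung adenocarcinoma line and SUM159 is a triple-negative breast cancer line. Palbociclib inhibits the cyclin D kinases CDK4 and CDK6, and indisulam is a sulfonamide that directs the splicing factor RBM39 to degradation. In each line the groups were untreated cells (UT), 2 µM palbociclib (PD), 3 µM indisulam (IN) and both drugs at these doses (P+I), with a treatment of 16 h. Each group had 2 libraries, described by the submitters as technical duplicates, so the p-values below measure only the spread between these libraries and not between independent cultures.

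E2F proteins bind promoters of genes for DNA replication and the cell cycle, most of them as heterodimers with a DP protein. In quiescent and early G1 cells the pocket proteins RB1, RBL1 and RBL2 bind E2F-DP dimers and keep those promoters silent, and phosphorylation of the pocket proteins by cyclin-dependent kinases frees them. E2F1, E2F2 and E2F3 are known as activators, E2F4 and E2F5 as partners of the pocket proteins in repression, E2F6 as a pocket-independent repressor, and E2F7 and E2F8 as atypical repressors that need no DP partner. Several E2F genes are themselves E2F targets.

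The libraries held 18306636 to 34075588 counts assigned to genes. A library's value is given below as CPM, the count of a gene scaled to a common library size (TMM within the line), and a count of 3 in a library corresponded to 0.0880 to 0.164 CPM, so all members were well above it. Mitochondrial genes took 1.83 to 8.75% of the gene counts. The line labels were checked on untreated cells in TPM, the like scale with counts divided by gene length: KRT8, an epithelial keratin, stood at 2652 and 2557 TPM in A549 against 345 and 377 in SUM159, and EPCAM stood at 37.2 and 34.4 TPM against 0.152 and 0.731. VIM, a mesenchymal filament, was at 621 and 611 TPM in A549 and at 3068 and 3157 in SUM159, where no read of PGR was counted. Values of the receptor genes ESR1 and ERBB2 are not given here, so the triple-negative label was not checked in full. The lung lineage genes NKX2-1, SFTPB and SFTPC had at most 3 reads in any untreated A549 library, so they did not mark that line. CDKN2A, whose product p16 the study describes as lost in A549, was counted there at 2.21 and 1.19 TPM. Its level was lower in untreated SUM159 cells, so absence of its reads did not mark A549.

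The family did not move as a block. With palbociclib 9 of the 10 members passed the test in A549 and 8 in SUM159, and 7 of them (E2F1, E2F2, E2F3, E2F4, E2F7, E2F8 and TFDP1) fell in both lines while TFDP2 rose in both. The share of all genes tested that passed in the same comparison was 43.2% in A549 and 54.5% in SUM159. The test was edgeR's quasi-likelihood test, and FDR stands for its p after Benjamini-Hochberg adjustment over all genes tested, with a threshold of 0.05. In bulk RNA, fewer cells of a type and less RNA per cell cannot be told apart.

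With indisulam alone, in each line 6 of 10 members passed, against 49.2% of all genes in A549 and 46.9% in SUM159, so this count was close to the background. E2F5, E2F7, E2F8 and TFDP1 fell in both lines and TFDP2 rose in both. With the combination 7 members passed in A549 and 9 in SUM159, where 57.8% and 65.3% of all genes passed, and E2F1, E2F2, E2F4, E2F7, E2F8 and TFDP1 fell in both lines while TFDP2 rose in both. These 3 comparisons share the untreated libraries of their line.

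The combination was also set against each drug. Against palbociclib 6 members passed in A549 and 6 in SUM159, with 51.5% and 48.3% of all genes passing. E2F1, E2F7, E2F8 and TFDP1 were lower, and TFDP2 higher, in both lines. Against indisulam all 10 members passed in A549 and all 10 in SUM159, with 38.8% and 52.9% of all genes passing: 8 were lower and E2F5 and TFDP2 were higher in both lines. The E2F3 call in A549 (-0.19 ± 0.06 log2) was lost on total-count scaling (-0.13), by DESeq2 (-0.17) and without the first indisulam (-0.14) or either combination library (-0.17 each). In no comparison did a member pass in opposite directions in the 2 lines.

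**Figure D1:**
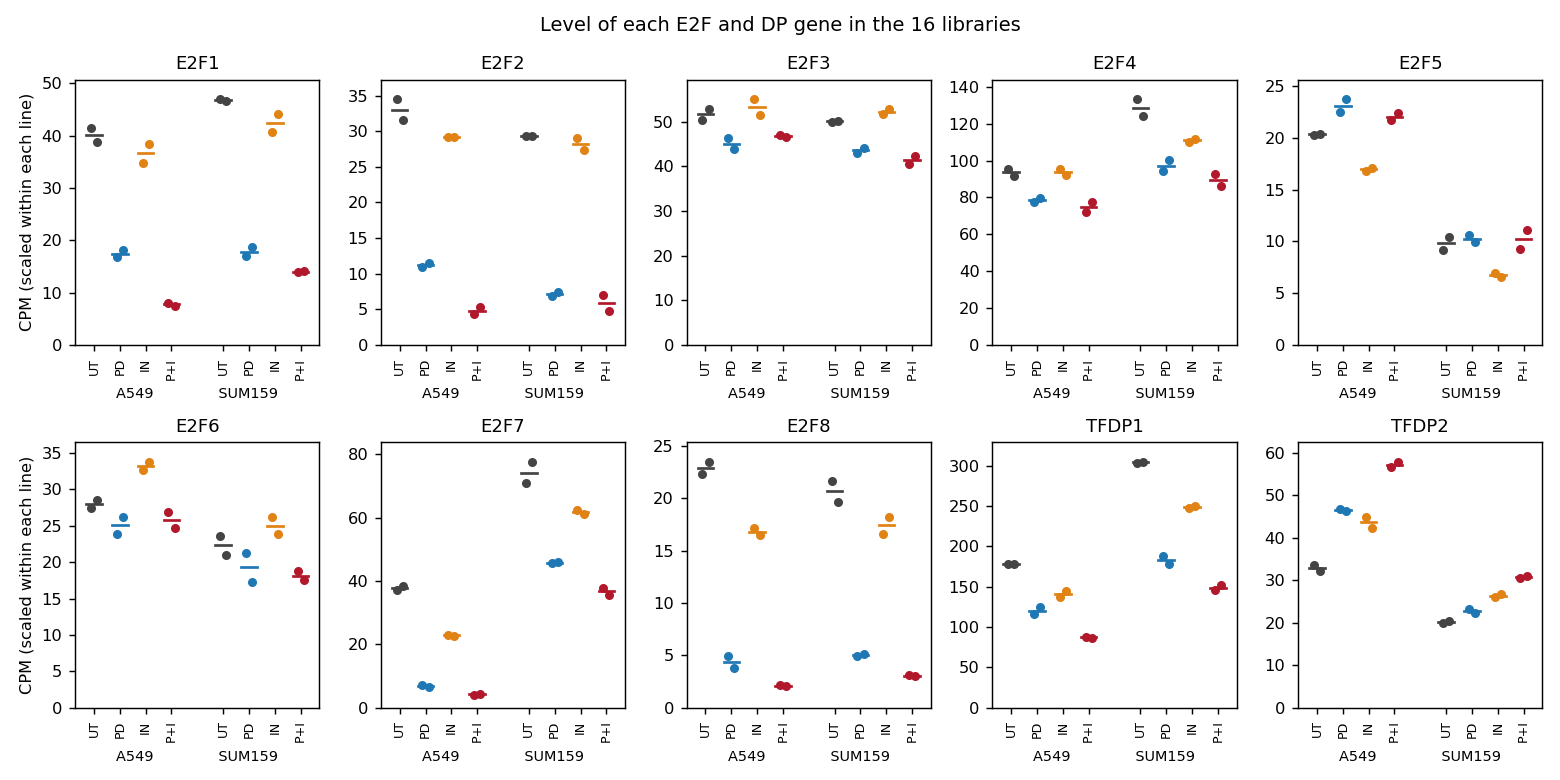
Level of each E2F and DP gene in CPM (vertical axes, each starting at 0, scaled within each line) in the 16 libraries, by group on the horizontal axes. Points are libraries and bars are means of 2. E2F1, E2F7 and E2F8 drop with palbociclib and further with the combination in both lines, E2F2 drops further with the combination in A549, TFDP2 climbs, and E2F3 and E2F6 stay near their untreated level.

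In untreated A549 cells TFDP1 had the highest level of the family, 164 ± 0.640 TPM (SD, n = 2), followed by E2F4 at 89.5 ± 2.91, E2F1 at 51.4 ± 2.83, E2F3 at 34.2 ± 1.03 and E2F6 at 23.7 ± 0.583 TPM. E2F2 (20.8 ± 1.41) and E2F7 (20.6 ± 0.382) overlapped, and E2F8 (19.1 ± 0.558), E2F5 (11.7 ± 0.0245) and TFDP2 (9.50 ± 0.340 TPM) closed the order. Apart from E2F2 and E2F7, each gene lay above the next in both libraries.

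In untreated SUM159 cells TFDP1 stood at 323 ± 17.3 TPM and E2F4 at 142 ± 0.109, followed by E2F1 (69.2 ± 3.25), E2F7 (47.0 ± 5.35), E2F3 (38.3 ± 2.14) and then E2F6 (21.8 ± 0.720) and E2F2 (21.3 ± 1.04), which overlapped. E2F8 was at 19.9 ± 0.323 TPM, and TFDP2 (6.72 ± 0.413) and E2F5 (6.51 ± 0.886) overlapped at the bottom. TFDP1 and E2F4 remained the first and second gene in all 8 groups. At the other end, E2F8 was last in the combination groups of both lines.

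The activators E2F1 and E2F2 fell steeply with palbociclib, while E2F3 hardly moved. E2F1 (ENSG00000101412, GRCh38 chr20:33675477-33686385, minus strand), the founding member of the family, and E2F2 (ENSG00000007968, chr1:23506438-23531233, minus strand) have an E2F motif close to the start, as has E2F3 (ENSG00000112242, chr6:20401879-20493714, plus strand) at the first of its 2 listed starts. The motif was searched as TTTGGCGC, TTTCCCGC, TTTCGCGC or TTTGCCGC on both strands of RefSeq promoters of 300 bases in GRCh38.p14, and 3.315% of 35116 promoters held it. The 130 bases before the start are shown for these genes because they fell to different extents, with the motif in capitals, and the distances that follow are counted from the start, the base before it being -1.
E2F1 promoter, chr20:33686386-33686515, minus strand: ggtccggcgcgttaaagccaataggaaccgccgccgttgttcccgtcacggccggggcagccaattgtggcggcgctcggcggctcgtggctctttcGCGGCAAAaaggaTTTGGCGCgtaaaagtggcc
E2F2 promoter, chr1:23531234-23531363, minus strand: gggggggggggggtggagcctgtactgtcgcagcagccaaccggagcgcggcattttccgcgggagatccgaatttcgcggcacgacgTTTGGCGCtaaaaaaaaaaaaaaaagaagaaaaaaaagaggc
E2F3 promoter, chr6:20401749-20401878, plus strand: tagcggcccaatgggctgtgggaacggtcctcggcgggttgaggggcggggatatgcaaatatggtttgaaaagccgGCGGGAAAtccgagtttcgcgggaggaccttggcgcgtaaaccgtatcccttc
E2F1 had matches at -33 to -26 on the opposite strand and at -20 to -13 on its own strand. E2F2 had its match at -42 to -35 and E2F3 at -53 to -46. A match is a description of the letters and not of binding.

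E2F1 stood at 41.5 and 38.7 CPM in untreated A549 libraries, 16.8 and 18.1 in PD, 34.8 and 38.4 in IN, and 8.05 and 7.45 in P+I. The palbociclib and combination libraries lay below all untreated ones. The log2 change was -1.19 ± 0.08 (SE) with palbociclib (FDR = 1.23e-08), to 0.437 of the untreated level, and -2.37 ± 0.09 with the combination (FDR = 1.39e-11), while the value with indisulam was -0.13 ± 0.07 (FDR = 0.138).

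In SUM159 the E2F1 libraries were at 46.9 and 46.6 CPM untreated, 16.9 and 18.7 in PD, 40.7 and 44.1 in IN, and 13.8 and 14.1 in P+I. Again the palbociclib and combination libraries were below the untreated ones, and here the 2 treated groups were closer to each other. The log2 changes were -1.39 ± 0.07 with palbociclib (FDR = 1.23e-11), -0.14 ± 0.06 with indisulam (FDR = 0.0583) and -1.75 ± 0.07 with the combination (FDR = 5.72e-13).

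E2F2 was counted at 34.5 and 31.6 CPM in untreated A549 cells, 10.9 and 11.6 in PD, 29.2 and 29.1 in IN, and 4.28 and 5.34 in P+I. Its groups did not overlap, and it changed by -1.55 ± 0.09 log2 with palbociclib (FDR = 2.32e-09) and -2.78 ± 0.10 with the combination (FDR = 1.13e-11), to 0.342 and 0.146 of the untreated level. The indisulam value was -0.18 ± 0.08 (FDR = 0.0696).

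E2F2 in SUM159 stood at 29.4 and 29.3 CPM untreated, 6.83 and 7.49 in PD, 29.1 and 27.3 in IN, and 6.99 and 4.75 in P+I. The combination libraries differed from each other, and the first of them lay between the palbociclib libraries. E2F2 changed by -2.03 ± 0.11 log2 with palbociclib (FDR = 5.62e-11) and -2.30 ± 0.11 with the combination (FDR = 9.83e-12). The combination did not differ from palbociclib by the test, at -0.27 ± 0.13 log2 (FDR = 0.11), a value that was -0.60 and passed without the first combination library, was -0.05 without the second, and passed without the low-count filter (-0.30).

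E2F3 codes for the remaining activator and gives rise to an a and a b form from separate first exons, which gene counts do not separate. In A549 it was at 50.3 and 52.9 CPM untreated, 46.3 and 43.9 in PD, 55.0 and 51.5 in IN, and 47.0 and 46.6 in P+I. In SUM159 the values were 49.9 and 50.2, 43.0 and 44.1, 51.6 and 52.7, and 40.4 and 42.3 CPM in the same order. The changes were small beside those of E2F1 and E2F2: with palbociclib -0.20 ± 0.06 log2 in A549 (FDR = 0.0128) and -0.20 ± 0.05 in SUM159 (FDR = 0.00293). Both of these calls were lost on total-count scaling (-0.14 and -0.09), and that in A549 also without the second untreated library (-0.17) or the second palbociclib library (-0.16). With the combination E2F3 was at -0.28 ± 0.05 log2 in SUM159 (FDR = 0.000141) and at -0.14 ± 0.06 in A549 (FDR = 0.0543).

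**Figure D2:**
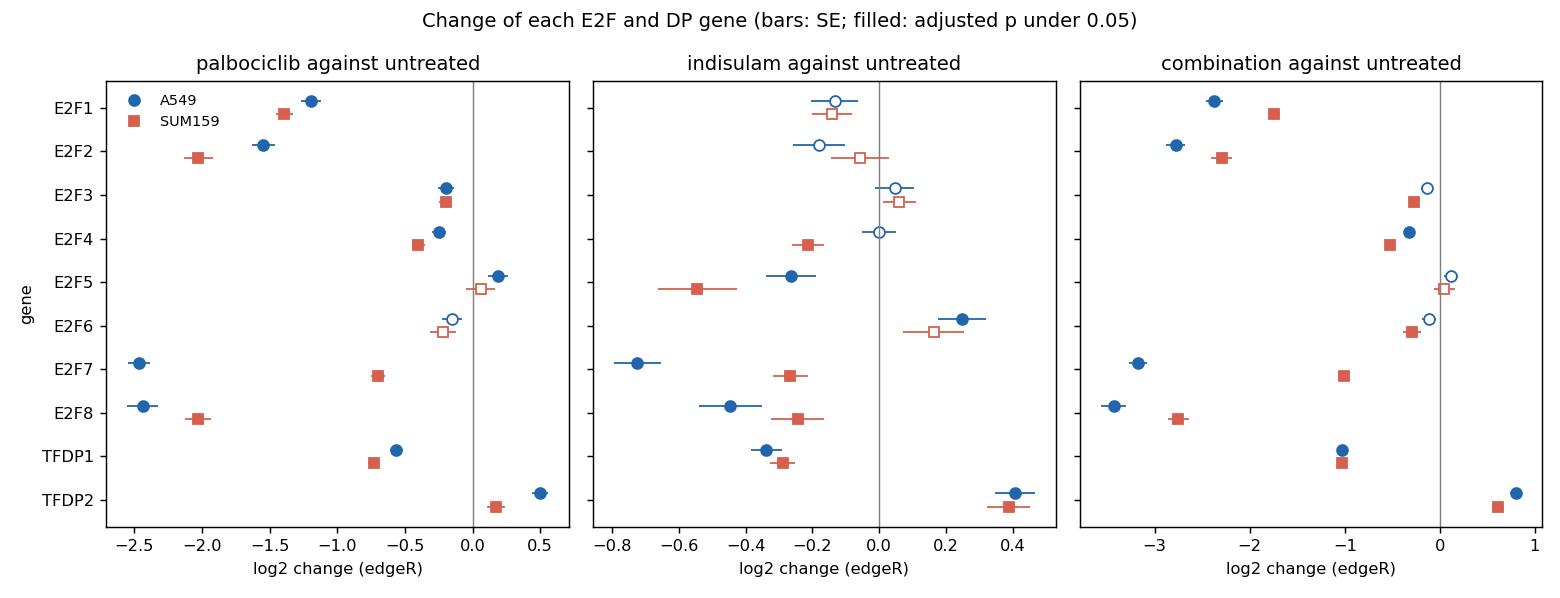
Log2 change of each gene against untreated cells (horizontal axes, scaled separately per panel) with palbociclib, indisulam and the combination, for A549 (circles) and SUM159 (squares). Bars are SE and filled symbols have an adjusted p under 0.05. E2F7 shows the widest gap between the lines, at -2.46 and -0.70 with palbociclib.

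E2F4 and E2F5 are the partners of pocket proteins among the E2F factors. E2F4 (ENSG00000205250, chr16:67192155-67198918, plus strand) is the main E2F of repressive complexes in resting cells, and its promoter held no match to the E2F motif in the 300 bases searched. E2F4 in A549 was at 95.3 and 91.8 CPM untreated, 77.8 and 79.7 in PD, 95.2 and 91.9 in IN, and 72.0 and 77.7 in P+I. Palbociclib and combination libraries were lower than untreated ones, at -0.25 ± 0.05 log2 (FDR = 0.00115) and -0.32 ± 0.05 (FDR = 8.47e-05), and the indisulam value was 0.00 ± 0.05.

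For SUM159 the E2F4 values were 133 and 124 CPM untreated, 94.4 and 100.1 in PD, 110.2 and 111.6 in IN, and 92.7 and 86.0 in P+I. All treated libraries lay below the untreated ones. E2F4 fell there with each drug, by 0.40, 0.21 and 0.52 log2 with palbociclib, indisulam and the combination (FDR = 1.96e-06, 0.00155 and 5.31e-08). The step from palbociclib to the combination was -0.12 ± 0.05 log2 (FDR = 0.0467), a call that was lost on total-count scaling (-0.08), by DESeq2 (-0.13) and without the second palbociclib (-0.08), either indisulam (-0.13) or the second combination library (-0.07).

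E2F5 (ENSG00000133740), on chromosome 8, was the one E2F gene that was lower with indisulam and not with palbociclib in both lines. In A549 it stood at 20.3 and 20.4 CPM untreated, 22.5 and 23.7 in PD, 16.8 and 17.1 in IN, and 21.8 and 22.4 in P+I. In SUM159 it was at 9.21 and 10.4, 10.6 and 9.90, 6.94 and 6.53, and 9.29 and 11.1 CPM. The indisulam libraries were below every other library of the line. The change with indisulam was -0.26 ± 0.08 log2 in A549 (FDR = 0.00985) and -0.54 ± 0.12 in SUM159 (FDR = 0.00113), and the call in A549 was lost by DESeq2 and without the second untreated or the first indisulam library.

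Palbociclib gave E2F5 a value of 0.19 ± 0.07 log2 in A549 (FDR = 0.0459), a call lost whichever library of the line was left out, and of 0.06 ± 0.11 in SUM159 (FDR = 0.664). The exons of E2F5 share 997 bases, or 16.6% of their length, with RBIS on the other strand. The strand setting of the counting is not given in the sources used here, so reads of the 2 genes may not have been told apart, although the libraries were strand-specific. RBIS changed with indisulam by 0.06 ± 0.06 log2 in A549 (FDR = 0.385) and by -0.22 ± 0.07 in SUM159 (FDR = 0.0229), where E2F5 was also lower. With the combination in SUM159 RBIS was at -0.26 ± 0.07 log2 (FDR = 0.00473) and E2F5 at 0.05 ± 0.11 (FDR = 0.709), and against indisulam the combination gave -0.04 ± 0.07 for RBIS (FDR = 0.627) and 0.59 ± 0.11 for E2F5 (FDR = 0.00023). Its part in the E2F5 value was not tested.

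E2F6 (ENSG00000169016, chr2:11444375-11466177, minus strand) codes for a repressor that lacks the pocket protein binding region and works with polycomb-like partners. Its levels in A549 were 27.4 and 28.6 CPM untreated, 23.9 and 26.2 in PD, 32.7 and 33.8 in IN, and 26.9 and 24.7 in P+I. The SUM159 libraries were at 23.6 and 21.0, 21.3 and 17.3, 26.1 and 23.9, and 18.7 and 17.5 CPM. Indisulam libraries were the highest in both lines, and the change passed in A549 (0.25 ± 0.07 log2, FDR = 0.0103) but not in SUM159 (0.16 ± 0.09, FDR = 0.155). The difference between the lines was -0.08 ± 0.12 log2 (FDR = 0.74), and the call in A549 was lost by DESeq2 and without the first untreated or the second indisulam library.

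With palbociclib E2F6 was at -0.15 ± 0.07 log2 in A549 (FDR = 0.112) and -0.22 ± 0.09 in SUM159 (FDR = 0.0582). With the combination it fell in SUM159 (-0.29 ± 0.09 log2, FDR = 0.0118), a call lost on total-count scaling (-0.15) and without the first untreated (-0.21) or the second combination library (-0.25). Set against indisulam, the combination lowered E2F6 in both lines, by 0.37 log2 in A549 (FDR = 0.000956) and by 0.46 in SUM159 (FDR = 0.000357).

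The atypical repressors E2F7 and E2F8 fell with every treatment in both lines and had the lowest levels of the family in A549 with palbociclib and with the combination. E2F7 (ENSG00000165891, chr12:77021248-77065569, minus strand) is known as an E2F1 target that limits E2F activity in S phase. Its promoter held no match to the searched E2F motif and is shown, without capitals, beside those of E2F1 and E2F2 because the gene fell at least as steeply in A549.
E2F7 promoter, chr12:77065570-77065699, minus strand: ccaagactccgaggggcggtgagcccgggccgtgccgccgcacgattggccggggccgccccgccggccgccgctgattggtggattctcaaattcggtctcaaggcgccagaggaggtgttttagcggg

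E2F7 was at 37.0 and 38.3 CPM in untreated A549 cells, 7.17 and 6.58 in PD, 22.9 and 22.7 in IN, and 4.0 and 4.31 in P+I. None of the groups overlapped. The log2 change was -2.46 ± 0.08 with palbociclib (FDR = 5.4e-12), -0.72 ± 0.07 with indisulam (FDR = 1.17e-06) and -3.18 ± 0.09 with the combination (FDR = 7.34e-13), so that 0.181, 0.605 and 0.110 of the untreated level were left.

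In SUM159 the E2F7 libraries stood at 70.9 and 77.5 CPM untreated, 45.7 and 45.8 in PD, 62.2 and 61.2 in IN, and 37.9 and 35.5 in P+I. The groups were ordered as in A549 and did not overlap, but over a narrower range. The changes were -0.70 ± 0.05 log2 (FDR = 7.58e-09), -0.27 ± 0.05 (FDR = 0.000483) and -1.01 ± 0.05 (FDR = 4.23e-11), leaving 0.617, 0.832 and 0.495 of the untreated level.

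E2F8 (ENSG00000129173, chr11:19224063-19241620, minus strand) acts with E2F7 in a redundant pair. Its A549 libraries were at 22.3 and 23.4 CPM untreated, 4.92 and 3.74 in PD, 17.1 and 16.5 in IN, and 2.12 and 2.11 in P+I. In SUM159 it was at 21.6 and 19.7, 4.95 and 5.16, 16.6 and 18.2, and 3.09 and 3.04 CPM. Unlike E2F7, it dropped to similar levels in both lines, and its groups did not overlap in either. Palbociclib lowered it by 2.44 log2 in A549 (SE 0.11, FDR = 2.55e-10) and by 2.03 in SUM159 (SE 0.10, FDR = 1.41e-11), and the combination by 3.43 (SE 0.14, FDR = 2.14e-11) and by 2.75 (SE 0.11, FDR = 5.3e-13). In the combination libraries of A549, E2F8 had the smallest count of any member, down to 45 reads.

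Indisulam changed E2F8 by -0.45 ± 0.09 log2 in A549 (FDR = 0.00118). In SUM159 its value was -0.24 ± 0.08 (FDR = 0.018), a call lost on total-count scaling (-0.19), by DESeq2 (-0.26) and without the first untreated (-0.17) or the first indisulam library (-0.18).

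The DP partners went in opposite directions. TFDP1 (ENSG00000198176, chr13:113584721-113641473, plus strand) codes for DP1 and had the higher RNA level here, and TFDP2 (ENSG00000114126, chr3:141944428-142149544, minus strand) codes for DP2. The TFDP1 promoter held the E2F motif at -120 to -113 on the opposite strand, and none of the 3 TFDP2 promoters listed held it. The TFDP1 window is shown beside the first listed TFDP2 window for this contrast.
TFDP1 promoter, chr13:113584623-113584752, plus strand: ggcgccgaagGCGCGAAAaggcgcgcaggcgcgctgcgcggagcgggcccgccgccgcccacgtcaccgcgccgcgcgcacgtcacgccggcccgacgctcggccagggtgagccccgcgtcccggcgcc
TFDP2 promoter, chr3:142149545-142149674, minus strand: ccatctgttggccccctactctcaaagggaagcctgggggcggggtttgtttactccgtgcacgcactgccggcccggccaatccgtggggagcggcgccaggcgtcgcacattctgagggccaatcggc
E2F2, E2F3 and TFDP1 thus held 1 match each and E2F1 held 2, while E2F4, E2F6, E2F7 and TFDP2 held none. E2F5 and E2F8 are not part of this count.

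TFDP1 was at 178.1 and 178.5 CPM in untreated A549 cells, 116 and 125 in PD, 138 and 144 in IN, and 88.1 and 86.9 in P+I. In SUM159 it was at 304 and 305, 188 and 179, 248 and 251, and 146 and 152 CPM. All treated libraries lay below the untreated ones in both lines and no groups overlapped. The changes in A549 were -0.56 ± 0.05 log2 with palbociclib (FDR = 1.9e-07), -0.34 ± 0.05 with indisulam (FDR = 2.96e-05) and -1.03 ± 0.05 with the combination (FDR = 1.49e-10), and in SUM159 they were -0.73, -0.29 and -1.03, each with an SE of 0.04. With the combination the gene was left at 0.491 of its untreated level in A549 and 0.489 in SUM159.

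TFDP2 rose in every treated group. The A549 libraries were at 33.5 and 32.1 CPM untreated, 46.8 and 46.1 in PD, 44.9 and 42.2 in IN, and 56.6 and 57.8 in P+I, and the SUM159 libraries at 20.0 and 20.3, 23.1 and 22.2, 25.9 and 26.7, and 30.5 and 31.0 CPM. Groups did not overlap, and the combination libraries were the highest in both lines. The changes in A549 were 0.50 ± 0.06 log2 with palbociclib (FDR = 8.46e-06), 0.41 ± 0.06 with indisulam (FDR = 5.86e-05) and 0.80 ± 0.06 with the combination (FDR = 2.63e-08). In SUM159 they were 0.17 ± 0.06 (FDR = 0.033), 0.39 ± 0.06 (FDR = 0.000107) and 0.61 ± 0.06 (FDR = 1.73e-07), and the palbociclib call was lost by DESeq2 and without either untreated or the first palbociclib library.

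The ratio of TFDP1 to TFDP2 in TPM therefore shifted. In A549 it was 17.3 ± 0.550 (SD, n = 2) untreated, 8.25 ± 0.498 with palbociclib, 10.3 ± 0.816 with indisulam and 4.86 ± 0.115 with the combination. In SUM159 it was 48.1 ± 0.381, 25.7 ± 0.189, 30.1 ± 0.384 and 15.3 ± 0.265. Each treated group lay below the untreated one in both libraries, while TFDP1 still had the higher level in every group.

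**Figure D3:**
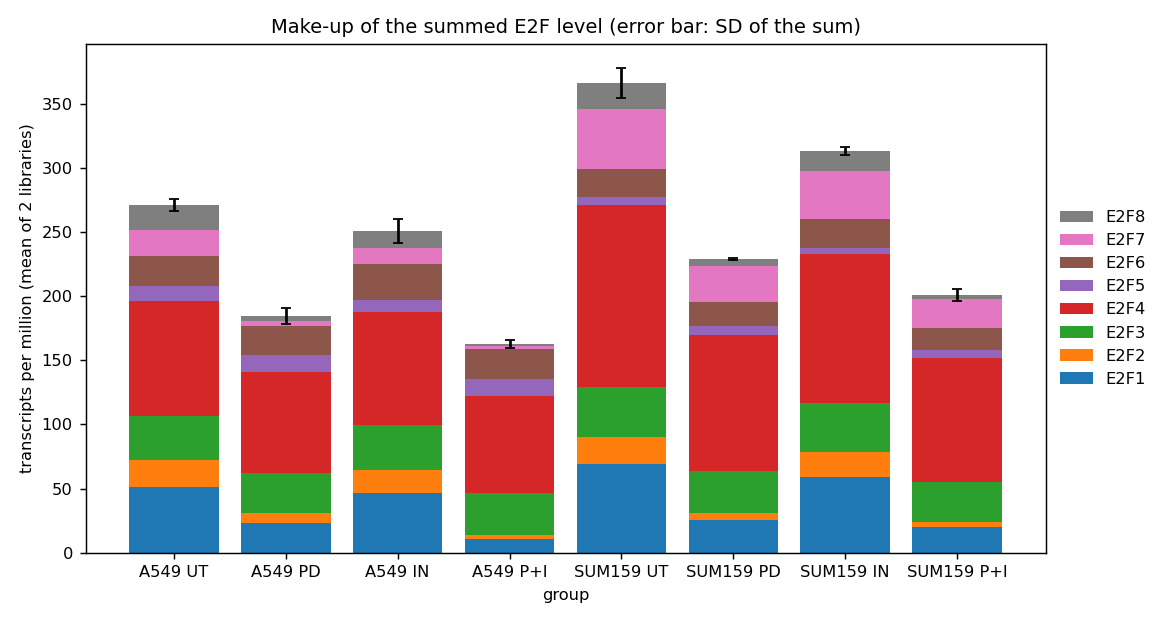
Stacked mean TPM of the 8 E2F genes (vertical axis, from 0) in the 8 groups, each the mean of 2 libraries. The error bar is the SD of the sum. The sum drops from 271 to 163 TPM (A549) or from 366 to 201 TPM (SUM159) between untreated and combination cells.

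Set together in TPM, the E2F genes summed to 271 ± 4.62 in untreated A549 cells and 163 ± 3.20 with the combination, and to 366 ± 11.7 and 201 ± 4.41 in SUM159. The share of E2F4 in this sum climbed to 46.5% ± 1.70 of it in A549, up from 33.1% ± 0.510, and in SUM159 to 48.0% ± 1.09, up from 38.8% ± 1.21. E2F1 shrank to 6.44% ± 0.458 in A549, down from 19.0% ± 0.723, and in SUM159 to 10.0% ± 0.416, down from 18.9% ± 0.282.

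E2F7 kept 11.3% ± 0.183 of the sum in SUM159 combination cells, against 12.8% ± 1.05 untreated, but 1.48% ± 0.0534 in A549, against 7.61% ± 0.271. The summed activators E2F1, E2F2 and E2F3 divided by the summed E2F7 and E2F8 gave 2.68 ± 0.145 untreated and 10.9 ± 0.380 with the combination in A549. The same quotient was 1.93 ± 0.0492 and 2.17 ± 0.0963 in SUM159. It thus moved far more in A549 than in SUM159, which is a description of these levels with no test.

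The P+I change was next compared with what the PD and IN changes add up to on the log2 scale, a comparison that asks whether both drugs gave more or less than their separate changes added up. In A549 2 members passed, with 3.53% of all genes passing. E2F1 was -1.04 ± 0.12 log2 below the sum (FDR = 0.000839), at -2.37 against a summed -1.33, and E2F2 was -1.05 ± 0.14 below it (FDR = 0.00207), at -2.78 against -1.73. Neither call was lost in any alternative run.

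In SUM159 0 members passed by edgeR, with 4.38% of all genes passing, while 3 did at an unadjusted p under 0.05 and 0 by DESeq2. E2F1 differed from the sum there by -0.21 (approximate interval of 2 SE either way, -0.40 to -0.02) and E2F2 by -0.21 (-0.53 to 0.11). E2F8 fell short of the threshold in both lines at -0.55 ± 0.20 in A549 (FDR = 0.151) and -0.48 ± 0.15 in SUM159 (FDR = 0.0924). E2F7 was at 0.01 ± 0.15 in A549 and -0.05 ± 0.08 in SUM159, and TFDP1 at -0.13 ± 0.07 and -0.01 ± 0.05. E2F5 in SUM159 was 0.53 ± 0.15 above the sum (FDR = 0.0594), and it passed without the low-count filter or without the first combination library. Whether these departures differed between the lines was not tested.

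**Figure D4:**
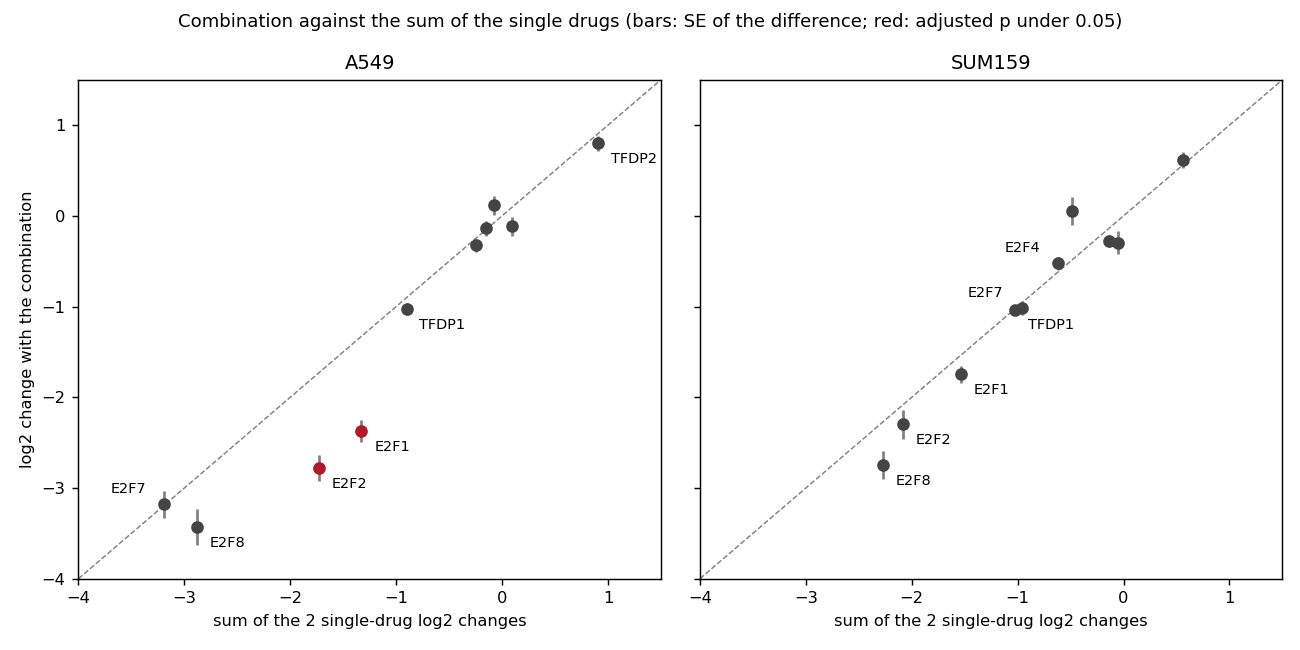
Log2 change with the combination (vertical axis) against the sum of the palbociclib and indisulam log2 changes (horizontal axis) for the 10 members in A549 and SUM159. The dashed line marks equality, bars are the SE of the difference and red points have an adjusted p under 0.05. E2F1 and E2F2 lie 1.04 and 1.05 below the line in A549.

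The lines were compared in a fit of all 16 libraries, with CPM scaled over both lines. In untreated cells 9 of 10 members differed, with 76.3% of all genes passing. TFDP1 was 0.64 ± 0.04 log2 higher in SUM159 (286 and 289 CPM against 184 and 185), E2F7 0.85 ± 0.06 higher (66.7 and 73.4 CPM against 38.3 and 39.7) and E2F4 0.33 ± 0.05 higher. E2F5 was lower in SUM159, at -1.19 ± 0.09 log2 (8.67 and 9.84 CPM against 21.0 and 21.1) and so was TFDP2, at -0.84 ± 0.07 (18.8 and 19.2 CPM against 34.7 and 33.2). E2F2, E2F3, E2F6 and E2F8 were lower by 0.30, 0.17, 0.46 and 0.28, and 3 of these calls depended on single libraries. That of E2F2 was lost without the first untreated A549 library (-0.15). That of E2F3 was lost on total-count scaling (-0.08), without the first (-0.12) or the second untreated A549 library (-0.07), and without the first palbociclib, the second indisulam or either combination library of A549 (-0.09 each). That of E2F8 was lost on total-count scaling (-0.18), by DESeq2 (-0.27) and without the first (-0.22) or the second untreated A549 library (-0.17) or the second untreated SUM159 library (-0.21). E2F1 was at 0.09 ± 0.07 (FDR = 0.235), and it passed on total-count scaling (0.19), without the first untreated A549 library (0.23) and without the first palbociclib, the second indisulam or either combination library of A549 (0.17 each).

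Responses were then compared as the change in SUM159 minus the change in A549. For palbociclib 2 members passed, with 12.8% of all genes passing, for indisulam 2, with 15%, and for the combination 4, with 30.9%. E2F7 stood out in this comparison: it fell less in SUM159 by 1.86 ± 0.10 log2 with palbociclib (FDR = 6.35e-12), by 0.46 ± 0.09 with indisulam (FDR = 0.000729) and by 2.23 ± 0.11 with the combination (FDR = 8.55e-13). On the common scale its palbociclib libraries were at 7.30 and 6.71 CPM in A549 and at 45.4 and 45.6 in SUM159, and its combination libraries at 4.15 and 4.49 against 37.7 and 35.2. None of the 3 calls was lost in any alternative run.

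E2F1 fell less in SUM159 with the combination, by 0.69 ± 0.12 log2 (FDR = 8.6e-05), which also passed in every alternative. E2F8 fell less with palbociclib by 0.51 ± 0.16 (FDR = 0.031) and with the combination by 0.75 ± 0.20 (FDR = 0.0053), and E2F2 fell less with the combination by 0.55 ± 0.18 (FDR = 0.02). E2F4 fell more with indisulam, at -0.21 ± 0.07 (FDR = 0.0491). The scaling bears on these smaller values, since the median over all genes of the difference was 0.0816 for palbociclib and 0.0995 for the combination, and -0.0168 and 0.0125 with DESeq2. By DESeq2 E2F8 was at 0.40 with palbociclib (FDR = 0.208), E2F2 at 0.46 with the combination (FDR = 0.0644) and E2F4 at -0.22 with indisulam (FDR = 0.0606). The E2F8 combination call was lost without either A549 combination library (0.61 and 0.59). Its palbociclib call was lost without any one of the A549 libraries other than the first palbociclib library, down to 0.14 without the second, and without the second untreated or either palbociclib library of SUM159. The E2F2 combination call was lost without any one of the A549 libraries other than the second combination library, at 0.33 without the first untreated and 0.25 without the first combination library, and at 0.22 without the first SUM159 combination library. The E2F4 call was lost on total-count scaling, without the low-count filter and without the second untreated, second palbociclib or either indisulam library of A549 or the first untreated or either indisulam library of SUM159, at -0.17 to -0.26.

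Other differences between the lines gained a call in alternatives. TFDP2 was at -0.23 ± 0.09 log2 with palbociclib (FDR = 0.0871), and passed on total-count scaling (-0.28), by DESeq2 (-0.33) and without any one of the 8 A549 libraries (-0.36 to -0.44). E2F2 was at -0.39 ± 0.15 with palbociclib (FDR = 0.093), and passed by DESeq2 (-0.48), without the low-count filter (-0.42) and in 9 of the 16 fits with 1 library left out. E2F4 was at -0.13 ± 0.07 with the combination (FDR = 0.181), and passed by DESeq2 (-0.22) and without any one of the 8 A549 libraries (-0.23 to -0.33). TFDP1 and E2F4 with palbociclib and TFDP2 and E2F3 with the combination passed only with single A549 libraries left out, in 7, 5, 7 and 4 of the 8 fits.

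The genes around the family were described from lists written from general knowledge. Of the 3 pocket proteins, RB1 and RBL1 fell and RBL2 rose with palbociclib and with the combination in both lines. Beside this, 43.2% of all genes passed with palbociclib in A549 and 54.5% in SUM159, and 57.8% and 65.3% with the combination. RBL1, which codes for p107 and is an E2F target, changed by -1.70 ± 0.08 log2 with palbociclib and -2.98 ± 0.10 with the combination in A549, and by -1.39 ± 0.06 and -2.07 ± 0.06 in SUM159. RB1 was at -0.61 ± 0.05 and -0.64 ± 0.05 in A549 and at -0.65 ± 0.04 and -0.93 ± 0.05 in SUM159.

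RBL2, which codes for p130, the pocket protein of resting cells, was at 0.17 ± 0.05 with palbociclib and 0.49 ± 0.05 with the combination in A549. In SUM159 the values were 0.28 ± 0.05 and 0.44 ± 0.05. Indisulam alone gave -0.43 for RB1, -1.38 for RBL1 and 0.12 for RBL2 in A549, where RBL2 did not pass (FDR = 0.066), and -0.39, -0.50 and 0.13 in SUM159, where all 3 passed. The share of all genes that passed with indisulam was 49.2% in A549 and 46.9% in SUM159.

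Of 6 MuvB subunits and B-MYB, which with pocket proteins or alone bind late cell cycle genes, 5 fell and none rose with palbociclib in each line, and with the combination 5 fell and 1 rose in each line. MYBL2, coding for B-MYB, fell by 2.25 log2 with palbociclib and 3.63 with the combination in A549, and by 1.87 and 2.63 in SUM159. LIN9, LIN52, LIN54 and RBBP4 fell in both lines with both treatments, by 0.27 to 1.34 log2. The share of all genes that passed was 43.2% and 54.5% with palbociclib and 57.8% and 65.3% with the combination, in A549 and SUM159. LIN37 rose with the combination, to 0.77 ± 0.29 log2 in A549 and 0.71 ± 0.25 in SUM159. Its SE was wider than that of any E2F or DP gene with the combination. Calls of single genes outside the family were not checked in the alternative runs.

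Of 7 genes of the E2F6 complex, 4 fell with palbociclib in A549 and 6 in SUM159, and 2 and 6 in P+I, and none rose. Set beside the shares of all genes just given, the count of 2 in A549 with P+I was below the background. PCGF6, its polycomb ring finger subunit, fell by 0.59 and 0.70 log2 with palbociclib and by 1.40 and 1.00 in P+I, and CBX3, an HP1 protein, by 0.50 and 0.46 and by 0.49 and 0.61, in A549 and SUM159. MGA and RYBP fell with palbociclib in both lines, by 0.20 to 0.41 log2. All 4 turnover factors of E2F proteins and cell cycle regulators (CCNF, FZR1, CDC20 and SKP2) fell with palbociclib and with the combination in both lines. The shares of all genes beside this count are the same. CCNF, the F-box cyclin, was at -2.12 ± 0.06 log2 with palbociclib in A549 and -1.56 ± 0.06 in SUM159, CDC20 at -1.77 ± 0.05 and -1.40 ± 0.03, FZR1 at -0.73 ± 0.07 and -0.53 ± 0.05, and SKP2 at -0.70 ± 0.06 and -0.83 ± 0.05.

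Classical E2F target genes of the G1/S transition fell together. Of all genes tested, 43.2% passed with palbociclib in A549 and 54.5% in SUM159. With the combination the shares were 57.8% and 65.3%, and with indisulam 49.2% and 46.9%. Of 24, 23 fell with palbociclib in each line, with a median of -1.50 log2 in A549 and -1.51 in SUM159, against medians of 0.0280 and 0.0186 over all genes tested. With the combination all 24 fell in both lines, with medians of -2.22 and -1.80 (all genes, 0.00137 and 0.0149). With indisulam 19 fell and 2 rose in A549 and 21 fell and 1 rose in SUM159, with medians of -0.324 and -0.294 (all genes, 0.00891 and 0.00877). RRM2, a ribonucleotide reductase subunit, had the largest fall with palbociclib in A549 (-2.40 log2) and with the combination in SUM159 (-3.34). TYMS, thymidylate synthase, had it with palbociclib in SUM159 (-2.35), and CDC45, a helicase component, with the combination in A549 (-4.11) and with indisulam in both lines (-1.45 and -1.09).

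CCNE1, coding for cyclin E1, moved least with palbociclib, at -0.18 log2 in A549 (FDR = 0.0665) and -0.02 in SUM159 (FDR = 0.865), and least with the combination too, at -0.72 and -0.28, both passing. With indisulam the smallest values were those of the helicase subunits MCM7 in A549 (-0.03) and MCM3 in SUM159 (-0.04).

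Of 12 MuvB targets of G2 and mitosis, all 12 fell with palbociclib and with the combination in both lines, beside the same shares of all genes. Their medians were -2.17 and -2.53 log2 in A549 and -1.49 and -2.03 in SUM159. Indisulam lowered 8 and raised 1 in A549 and lowered 10 and raised 1 in SUM159, where 49.2% and 46.9% of all genes passed. The largest falls were those of KIF20A, a mitotic kinesin, with palbociclib (3.30 and 2.46 log2) and of TOP2A, topoisomerase 2 alpha, with the combination (4.0 and 2.87) and indisulam (1.10 and 0.64). The smallest were AURKA (1.78) and CENPE (1.13) with palbociclib and CCNB2 (1.58) and CDC25C (1.25) with the combination, in A549 and SUM159, and with indisulam AURKA at 0.00 and CDC25C at -0.07. The medians over the 10 E2F and DP genes were closer to 0, at -0.405 and -0.549 with palbociclib and -0.675 and -0.768 with the combination.

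**Figure D5:**
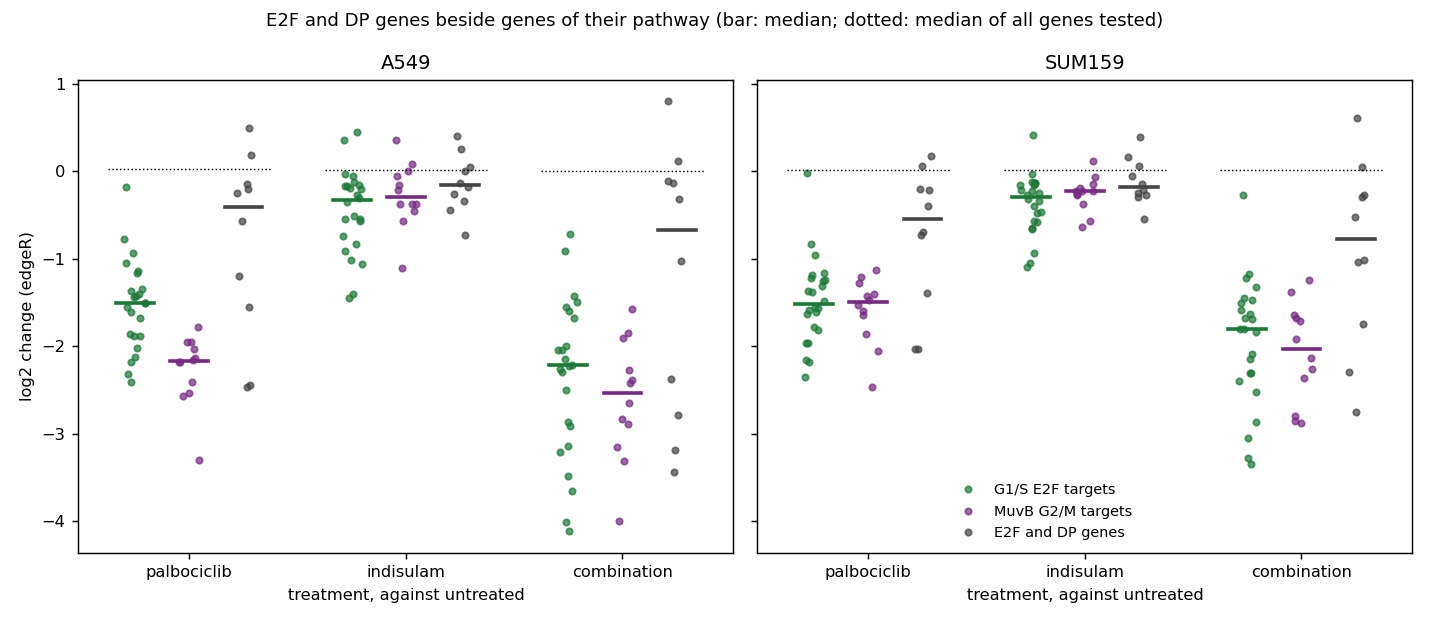
Log2 change against untreated cells (vertical axis) of 24 G1/S E2F targets, 12 MuvB G2/M targets and the 10 E2F and DP genes with each treatment (horizontal axis) in A549 and SUM159. Points are genes, bars are list medians and dotted lines are the medians over all genes tested. The target lists lie well under 0 with palbociclib and the combination, while the E2F and DP genes spread from -3.43 to 0.80.

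The most similar pattern to each member was sought among 9378 protein-coding genes over the 16 libraries, on log2 CPM centred within each line. The libraries share their treatments, so a high correlation reflects that shared design as well, and r is given as a description. FAM111B, a gene with a protease domain, was nearest to both E2F1 (r = 0.994) and E2F2 (0.989). KIF15, a mitotic kinesin, was nearest to E2F8 (0.997), IQGAP3 to E2F7 (0.989), and RFC2, a clamp loader subunit, to TFDP1 (0.993). DHRS7 was nearest to TFDP2 (0.984), GPATCH4 to E2F4 (0.963), WWC3 to E2F5 (0.941) and TMEM70 to E2F6 (0.916). With Spearman's rho IQGAP3 was still the nearest to E2F7, and the nearest gene was another one for the other 9 members.

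Among the members themselves, on the same scale, E2F1 and E2F2 were the closest pair (r = 0.985), followed by E2F1 with E2F8 (0.982) and E2F2 with E2F8 (0.979). TFDP1 and TFDP2 ran most opposite (r = -0.909). The 10 annotated pseudogenes of members had at most 10 reads in any library.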

How the data were processed

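RNA of A549 and SUM159 cells (8 groups, 16 libraries) had been made into strand-specific poly(A) libraries. The authors trimmed the reads and aligned them to GRCh38, and per the labels HISAT2 2.2.1 and HTSeq were used. The deposited files hold raw counts per Ensembl gene for each library. The HTSeq strand setting and annotation release are not given in the sources used here. Reads assigned to no gene, 13.2 to 16.4% of each library, were left out. Groups came from the source names in the labels, and no per-sample column was left unused.

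Gene names, lengths and positions came from GENCODE 44 on GRCh38 (58207 of 58676 IDs matched) and promoters from RefSeq. The promoter set held no entry for E2F8, and E2F5 was not used here. edgeR 4.0.16 (R 4.3.3; filterByExpr, TMM, quasi-likelihood test, Benjamini-Hochberg over all genes tested) was fitted to the 8 libraries of each line (15744 genes in A549, 16080 in SUM159) and, for differences between lines, to all 16 (17764 genes). In simulated data with 200 genes moved by 1 on the log2 scale, for indisulam against untreated cells, 81.0% of them were recovered in A549 (15657 genes) and 79.5% in SUM159 (15998 genes), and 5.26% and 9.14% of calls were false. Far more genes passed in the data themselves, 49.2% in A549 and 46.9% in SUM159, so these rates need not hold there. TPM used the summed length of the exons of a gene. SD comes from the 2 libraries of a group. SE comes from the edgeR fit, which estimates the spread over all libraries fitted together and draws on all genes. The files give 18306636 to 34075588 counts per library. Duplicates differed by a chi-square of 1.59 (SUM159 IN) to 9.13 (SUM159 UT) per degree of freedom, where counting error alone would give about 1. This value pools all genes, and genes with many reads can weigh heavily in it. It therefore does not give the part of counting error in the spread of a single member. In untreated SUM159 cells, which the SUM159 comparisons with untreated cells share, E2F1 had 973 and 974 reads and E2F7 1470 and 1618. Alternatives were total-count scaling, DESeq2 1.42.0, no filter on low counts, a replicate block, leaving out each library, the longest transcript as length and Spearman's rho.

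The members and lists were chosen with earlier results of these data known. All 10 members were named. Of the pocket protein, MuvB, E2F6 complex and turnover lists, genes were named that passed in both lines in the same direction with palbociclib or the combination, and RB1, RBL1 and RBL2 always. Of the target lists the largest fall and the smallest change were named, and for likeness (log2 CPM, prior count 2, mean of at least 5 CPM in each line) the 1 nearest protein-coding gene. The gene most like E2F3 in pattern is not reported here.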

Additional observations from a re-analysis of the deposited data

Results flagged for a closer look

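The responses of 5 members differed between the lines in a test of the difference itself, given as SUM159 minus A549 on the log2 scale. With palbociclib, where 12.8% of all genes passed, E2F7 differed by 1.86 and E2F8 by 0.51. With indisulam, where 15% of all genes passed, E2F7 differed by 0.46 and E2F4 by -0.21. With the combination, where 30.9% of all genes passed, E2F7 differed by 2.23, E2F8 by 0.75, E2F1 by 0.69 and E2F2 by 0.55. E2F7 and E2F1 passed under each alternative run, and the other values lost their call under some of them. TFDP2 and E2F2 with palbociclib and E2F4 with the combination were not called but passed by DESeq2. With 2 libraries per group no search for single outlying libraries was made.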

How the results depend on the processing

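With 2 libraries per group, each call rests on few residual degrees of freedom. Under total-count scaling 143 of the single-gene values kept direction and call, 10 lost the call, 3 gained it and 4 turned sign. For DESeq2 these numbers were 142, 11, 3 and 4, and without the low-count filter 150, 3, 3 and 4. The duplicate numbers are only shared: same-numbered duplicates correlated between -0.114 and 0.114 in their deviations, and with a replicate block 155 values were alike, 3 lost the call, 1 gained it and 1 turned sign. Crossed numbers, tried after seeing the data, left the combination against palbociclib at 6 members in each line. The fit without the low-count filter gave 1 member, not 0, departing from the summed single-drug changes in SUM159, and leaving out libraries gave 0 to 1. The indisulam difference between lines had 1 member, not 2, by total-count scaling, DESeq2, no filter or the replicate block, and 1 to 2 with a library left out, and the palbociclib difference 1 to 6.

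Total-count scaling moved the median over all genes in SUM159 by 0.105 (palbociclib) and 0.148 (combination), and the share of higher calls among all genes to 62.5 and 64.3% against 46.8 and 49.3%. In the line differences DESeq2 put that share at 42.2% where edgeR had 75.4% (palbociclib) and at 44.7% where it had 61.8% (combination). Over fits of 16 libraries less 1, the median over all genes ranged between -0.101 and 0.0865 (palbociclib) and between -0.0576 and 0.113 (combination), and the cause was not tested.

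Signs turned only in small values without a call, given in log2. By total-count scaling these were, between lines, E2F1 (0.018) and TFDP2 (0.0069) with indisulam and E2F6 with palbociclib (-0.022), and E2F5 in SUM159 against palbociclib (0.033). By DESeq2 they were E2F3 (-0.0048) and E2F6 (-0.062) with palbociclib and TFDP1 with the combination (-0.025) between lines, and E2F4 in A549 with indisulam (-0.0075). Without the filter they were E2F1 (0.019) and TFDP2 (0.0073) with indisulam and E2F6 with palbociclib (-0.0047) between lines, and E2F4 in A549 with indisulam (-0.0065). The replicate block turned E2F5 between lines with the combination (0.0016).

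Leaving out libraries, line differences turned sign for E2F1 (-0.085 to 0.050), E2F3 (-0.053 to 0.063) and TFDP2 (-0.085 to 0.030) with indisulam, for E2F3 (-0.10 to 0.11), E2F5 (-0.24 to 0.058) and E2F6 (-0.21 to 0.18) with palbociclib, and for E2F5 (-0.17 to 0.12) and TFDP1 (-0.10 to 0.083) with the combination. Departures from the summed changes did so for E2F3 (-0.034 to 0.061), E2F4 (-0.10 to 0.019) and E2F7 (-0.062 to 0.10) in A549 and for E2F2 (-0.54 to 0.010), E2F7 (-0.12 to 0.00059) and TFDP1 (-0.057 to 0.017) in SUM159. The rest were E2F4 with indisulam (-0.021 to 0.033) and E2F6 against palbociclib (-0.019 to 0.11) in A549, and in SUM159 E2F5 against palbociclib (-0.14 to 0.12), with the combination (-0.078 to 0.18) and with palbociclib (-0.021 to 0.15), and E2F6 against palbociclib (-0.23 to 0.058).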
